A study of Mus musculus with 8 samples.

Results

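The genes of MHC class I antigen presentation described here are *H2-K1*, *H2-D1*, *B2m*, *Tap1*, *Tap2*, *Tapbp*, *Psmb8*, *Psmb9*, *Psmb10* and *Nlrc5*. They were chosen by name, with earlier results of these data known. Each of the 10 genes was found once among the 23282 rows of the liver RNA-seq counts. The labels give male C57BL/6 mice aged 4 weeks, although the sex-linked counts of the control and endotoxemic libraries, given below, do not match male livers. Control mice were injected with saline, and endotoxemic mice were injected intraperitoneally with 25 mg/kg LPS, the endotoxin of gram-negative bacteria. The LGK974 group received 60 mg/kg LGK974, an inhibitor of Wnt secretion, as well as LPS, although its sample label names LGK974 alone. The methods place LGK974 at 2 h before LPS in most experiments and the collection of livers at 6 h after LPS. No library of mice given LGK974 without LPS was analysed here, so the comparisons concern LPS alone and LGK974 added to LPS.

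MHC class I molecules show peptides from inside the cell to CD8+ T cells on the surface of nearly all nucleated cells. The proteasome cuts proteins into peptides, the TAP transporter carries the peptides into the endoplasmic reticulum, and tapasin helps to load them onto a heavy chain bound to β2-microglobulin. Interferon-γ is known to raise the whole set, and it exchanges the constitutive catalytic subunits of the proteasome for inducible ones, which form the immunoproteasome. Hepatocytes, Kupffer cells and endothelial cells of the liver all carry class I molecules.

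Of the 10 genes, 7 lie within 1.35 Mb of the MHC region on chromosome 17 of GRCm38. *Psmb9* (chr17:34181987-34187764, minus strand), *Tap1* (chr17:34187553-34197225, plus strand), *Psmb8* (chr17:34197721-34201454, plus strand) and *Tap2* (chr17:34203527-34216321, plus strand) follow each other within 34.3 kb. *Tapbp* (chr17:33915899-33929292, plus strand) and *H2-K1* (chr17:33996017-34000347, minus strand) lie on one side of this stretch and *H2-D1* (chr17:35262730-35267499, plus strand) on the other. *B2m* is on chromosome 2 (chr2:122147686-122153083, plus strand). *Nlrc5* (chr8:94434356-94527272, plus strand) and *Psmb10* (chr8:105935735-105938444, minus strand) are on chromosome 8. The rows of the files are sorted by genomic position, but for 581 of the 23146 rows with a RefSeq position the symbol belongs over 2 Mb from where the neighbouring rows place it. None of the 10 class I genes was among these, and the rows on both sides of each gene belonged to its genomic neighbours. For *H2-D1* this holds for the row before it, while the row after it, *H2-L*, had no position in the reference used here and no counts. In the GENCODE annotation, *Tap1* and *Psmb9* overlap head to head by 212 bases, and every other class I gene except *H2-K1* and *H2-D1* overlaps another gene as well. The strand setting of the counting is not given in the sources used here, so reads from overlapping genes on opposite strands cannot be told apart with certainty.

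The promoters of *H2-K1*, *H2-D1*, *B2m* and *Tap1* are shown because these genes share a pathway and a known response to interferon and NF-κB, and because their responses to LPS differed. Each sequence is the RefSeq window on GRCm38.p6 from 250 bases before to 50 bases after the annotated start site, read 5′ to 3′ on the strand of the gene. RefSeq windows were found for 8 of the 10 genes, and *Tap2* and *Nlrc5* had no entry. Capitals mark matches, on either strand, to the Y box core CCAAT, to the interferon-stimulated response element (ISRE) core, in which any 2 bases separate GAAA from a second GAAA, to a shorter interferon-type motif (GAANNGAAA), to an NF-κB motif in which any 3 bases separate GGG from TTCC, and to the degenerate NF-κB consensus, whose matches can overlap the former. The shorter interferon-type motif and the degenerate consensus were added after the sequences had been seen. The windows are chr17:34000298-34000597 for *H2-K1* (minus strand), chr17:35262844-35263143 for *H2-D1* (plus strand), chr2:122147437-122147736 for *B2m* (plus strand) and chr17:34187306-34187605 for *Tap1* (plus strand).
H2-K1: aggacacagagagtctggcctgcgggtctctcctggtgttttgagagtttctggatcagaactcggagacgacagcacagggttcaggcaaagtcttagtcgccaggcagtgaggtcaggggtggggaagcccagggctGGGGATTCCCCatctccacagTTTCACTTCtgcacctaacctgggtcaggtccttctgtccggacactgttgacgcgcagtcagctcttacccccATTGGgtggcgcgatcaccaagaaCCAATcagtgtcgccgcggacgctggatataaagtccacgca
H2-D1: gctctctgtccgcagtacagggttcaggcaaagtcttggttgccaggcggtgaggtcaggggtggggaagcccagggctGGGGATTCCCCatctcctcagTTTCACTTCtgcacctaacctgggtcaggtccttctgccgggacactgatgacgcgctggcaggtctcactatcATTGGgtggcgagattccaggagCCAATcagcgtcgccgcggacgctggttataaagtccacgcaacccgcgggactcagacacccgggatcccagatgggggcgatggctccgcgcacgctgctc
B2m: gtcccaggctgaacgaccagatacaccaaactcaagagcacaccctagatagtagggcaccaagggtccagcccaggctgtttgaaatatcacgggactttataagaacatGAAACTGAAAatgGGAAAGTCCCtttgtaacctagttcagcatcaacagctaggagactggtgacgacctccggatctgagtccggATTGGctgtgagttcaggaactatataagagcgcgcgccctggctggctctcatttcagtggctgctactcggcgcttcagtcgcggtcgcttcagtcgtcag
Tap1: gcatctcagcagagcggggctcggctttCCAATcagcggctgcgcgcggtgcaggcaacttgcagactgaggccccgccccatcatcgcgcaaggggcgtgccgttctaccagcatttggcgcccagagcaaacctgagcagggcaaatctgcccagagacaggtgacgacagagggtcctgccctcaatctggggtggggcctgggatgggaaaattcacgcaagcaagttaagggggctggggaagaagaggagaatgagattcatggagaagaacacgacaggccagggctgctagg

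The Y box core was found in 6 of the 8 windows (*B2m*, *H2-D1*, *H2-K1*, *Psmb9*, *Tap1* and *Tapbp*), and 37.9% of all 27025 RefSeq windows of this length held it. *H2-K1* and *H2-D1* both carried the run GGGGATTCCCC, which matches the NF-κB consensus, followed by TTTCACTTC, the reverse strand of GAANNGAAA. Of all windows, 8.18% held the NF-κB consensus and 7.56% held GAANNGAAA. *B2m* carried GAAACTGAAA, a match to the ISRE core that 3.49% of all windows hold, and GGAAAGTCCC, whose reverse strand matches the GGG and TTCC motif (5.52% of all windows) and the degenerate consensus. The windows of *Tap1* and *Psmb9* overlap by 275 bases on opposite strands and share 1 Y box core, with no match to the interferon-type or NF-κB motifs searched. The gamma-activated site TTCNNNGAA, held by 8.47% of all windows, was found among the class I genes in *Psmb8*, as TTCCCAGAA. These matches describe letters in a window and are not measured binding sites.

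There were 2 control libraries, 4 endotoxemic libraries and 2 LGK974 libraries. Endotoxemic libraries 3 and 4 held the same counts as libraries 1 and 2 on every row, so each pair was counted as 1 sample and every group had 2 distinct libraries. Total counts ranged from 9142116 to 15222439 per library, and the lowest count of a class I gene in any library was 34. The libraries of the LGK974 group stood apart in 2 ways. *Xist* had 3 and 7 counts there against 1171 to 3115 in the other libraries, and the Y-linked *Ddx3y* had 1392 and 1755 counts against 0. The control and endotoxemic counts thus look like those of female livers, although the labels give male mice throughout. Sex and LGK974 cannot be told apart in any comparison with the LGK974 group. The spread between the LGK974 libraries was also wider. Of the 7113 rows with a mean above 10 CPM, 8.84% differed more than 2-fold between them, against 1.57% for the control and 1.76% for the endotoxemic libraries. The labels do not say that the libraries of a group came from separate mice, so p-values measure the spread between libraries. In bulk liver, a change in the share of a cell type and a change in RNA per cell cannot be told apart.

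To see how class I presentation genes responded to LPS, endotoxemic livers were set against control livers. Of the 10 genes, 9 were higher in the endotoxemic group, with *B2m* as the exception, and the median log2 change of the 10 was 2.08. Among all 12701 rows tested, 20.4% were called higher and the median log2 change was 0.01. The levels of the 9 genes did not overlap between the groups, being higher in both endotoxemic libraries than in both control libraries, as for 37.9% of all rows. Calls are by edgeR's quasi-likelihood test at a Benjamini-Hochberg adjusted p below 0.05, and levels are CPM, read counts scaled by TMM-normalized library size, given as mean ± SD or for each library.

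**Figure D1:**
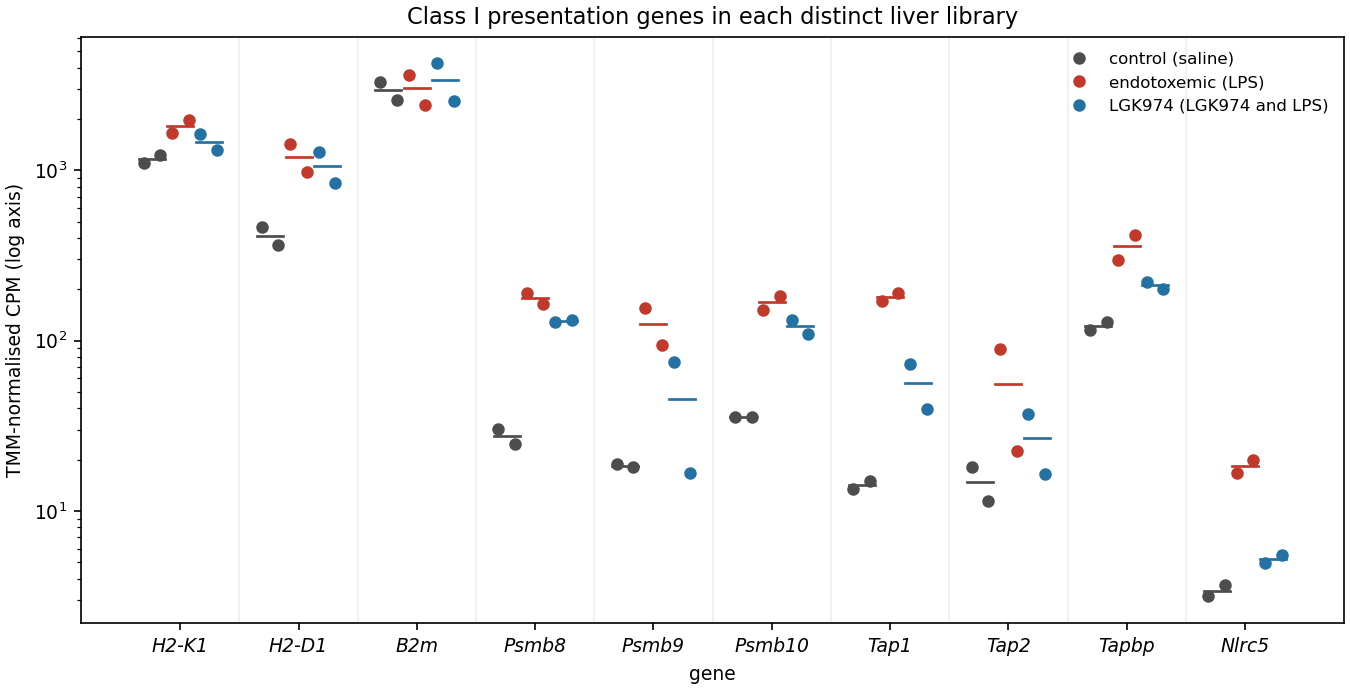
TMM-normalized CPM (log axis) of the 10 class I genes in each distinct library of the control, endotoxemic and LGK974 groups, with points for libraries and bars for the mean of 2 libraries. *Tap1* rose from 13.5 and 14.9 CPM in the control group to 171 and 190 CPM after LPS, whereas the *B2m* libraries of all groups overlap between 2426 and 4242 CPM.

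The transporter and loading genes included the largest rise of the set. *Tap1* encodes a subunit of the TAP peptide transporter, and its level was 14.2 ± 1.02 CPM (SD, n = 2) in control livers and 181 ± 13.3 CPM after LPS. This was a 12.7-fold rise (log2 change 3.67, SE 0.31, edgeR adjusted p = 2.57e-05). *Tap2*, the partner subunit, had 18 and 11.5 CPM in the control pair and 89.4 and 22.4 CPM in the endotoxemic pair. Its log2 change of 1.93 (SE 0.60, edgeR adjusted p = 0.0284) rested mostly on endotoxemic library 1, without which it was 0.66 (edgeR adjusted p = 0.357). The call of *Tap2* was also lost without control library 1 (edgeR adjusted p = 0.0781), without control library 2 (edgeR adjusted p = 0.161), with DESeq2 (adjusted p = 0.0689) and with limma-voom (adjusted p = 0.0619). *Tap1* had 1.92 counts for each count of *Tap2* in endotoxemic library 1 and 8.49 in library 2, so the subunits did not keep a fixed ratio between these libraries. *Tapbp*, which encodes tapasin, had 115 and 128 CPM in the control pair and 297 and 419 CPM in the endotoxemic pair, a 2.95-fold rise (log2 change 1.56, SE 0.22, edgeR adjusted p = 0.00049).

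Each of the 3 inducible catalytic subunits of the immunoproteasome rose. *Psmb8* (LMP7, which replaces PSMB5) had 30.1 and 24.8 CPM in the control pair and 191 and 164 CPM in the endotoxemic pair, a 6.49-fold rise (log2 change 2.70, SE 0.21, edgeR adjusted p = 1.56e-05). *Psmb10* (MECL-1, which replaces PSMB7) was at 35.5 CPM in both control libraries and at 152 and 183 CPM in the endotoxemic pair, which was 4.71-fold higher (log2 change 2.23, SE 0.21, edgeR adjusted p = 4.29e-05). *Psmb9* (LMP2, which replaces PSMB6) had 18.8 and 18.1 CPM in the control pair, and 155 and 93.9 CPM in the endotoxemic pair. Its 6.73-fold rise had a wider error than the others (log2 change 2.75, SE 0.58, edgeR adjusted p = 0.00466). The 95% intervals of the 3 log2 changes, 2.23 to 3.17 for *Psmb8*, 1.44 to 4.06 for *Psmb9* and 1.77 to 2.70 for *Psmb10*, overlapped, so no order among them is given.

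Both heavy chains passed the threshold with LPS, and *B2m* did not. *H2-K1*, a classical class I heavy chain, had 1099 and 1223 CPM in the control pair and 1658 and 1979 CPM in the endotoxemic pair, a 1.57-fold rise (log2 change 0.65, SE 0.20, edgeR adjusted p = 0.0297). That call was lost when any 1 of these 4 libraries was left out, with adjusted p values by edgeR of 0.194 and 0.104 without control libraries 1 and 2 and of 0.0531 and 0.193 without endotoxemic libraries 1 and 2. *H2-D1*, the other classical heavy chain, rose 2.91-fold, from 462 and 363 CPM to 1430 and 974 CPM (log2 change 1.54, SE 0.28, edgeR adjusted p = 0.00209). *B2m*, the invariant light chain, had 3316 and 2584 CPM in the control pair and 3640 and 2426 CPM in the endotoxemic pair. Its groups overlapped, and its log2 change of 0.04 had a 95% interval of −0.62 to 0.70 (edgeR adjusted p = 0.925), which leaves room for a change of about the size seen in *H2-K1*. *B2m* had 2.12 and 1.63 counts for each count of the heavy chains *H2-K1* and *H2-D1* in the control pair, and 1.18 and 0.821 in the endotoxemic pair. Class I heavy chains are similar in sequence, and how the authors' counting treated reads that fit several of them is not given in the sources used here. When the counts of 20 heavy chain rows were summed, the log2 change was 0.54 (SE 0.21, edgeR adjusted p = 0.0619), which did not pass the threshold. That sum included the secreted *H2-Q10*, with 1131 and 1004 CPM in the control pair and 847 and 789 CPM in the endotoxemic pair. It left out *H2-Q9*, whose row was counted as out of order and had a log2 change of 2.61. Sums over other sets of rows were not tested.

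*Nlrc5*, the transactivator that drives class I genes, had the lowest level of the set. It had 34 and 56 counts (3.16 and 3.66 CPM) in the control pair and 154 and 188 counts (16.8 and 20 CPM) in the endotoxemic pair. This was a 5.37-fold rise (log2 change 2.43, SE 0.30, edgeR adjusted p = 0.000216), with an interval of 1.76 to 3.10 that overlapped those of the inducible proteasome subunits.

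The next comparison asked whether the class I genes differed when LGK974 was added to LPS. *Nlrc5* and *Tap1* were lower in the LGK974 group, and the other 8 genes did not pass the threshold. Of all rows tested, 2.82% were called lower in this comparison, and the median log2 change was −0.61 for the 10 genes and 0.03 for all rows. Both LGK974 libraries were below both endotoxemic libraries for 7 of the 10 genes, as for 26% of all rows. The exceptions were *H2-D1*, *B2m* and *Tap2*.

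*Nlrc5* had 66 and 81 counts (4.98 and 5.48 CPM) in the LGK974 pair, a 3.51-fold lower level than with LPS alone (log2 change −1.81, SE 0.29, edgeR adjusted p = 0.011). *Tap1* had 73.1 and 39.7 CPM, which was 3.21-fold lower (log2 change −1.68, SE 0.28, edgeR adjusted p = 0.0142). With endotoxemic library 1 left out, the adjusted p by edgeR was 0.0727 for *Nlrc5* and 0.0837 for *Tap1*. Without endotoxemic library 2 it was 0.136 and 0.126, while the log2 changes stayed between −1.96 and −1.68 for *Nlrc5* and between −2.19 and −1.31 for *Tap1* when any 1 library was left out.

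*Psmb8* and *Psmb10* stayed closer to their endotoxemic levels. *Psmb8* had 128 and 132 CPM in the LGK974 pair, with a log2 change of −0.45 (95% interval −0.89 to −0.02, edgeR adjusted p = 0.202). *Psmb10* had 133 and 110 CPM and a log2 change of −0.46 (95% interval −0.90 to −0.02, edgeR adjusted p = 0.206). The intervals of *Psmb8* and *Psmb10* did not overlap those of *Nlrc5* (−2.46 to −1.17) and *Tap1* (−2.31 to −1.05), although differences between genes were not tested. With an unadjusted p below 0.05, 6 of the 10 class I genes were lower in the LGK974 group, against 22.9% of all rows in either direction. With the identical endotoxemic libraries counted separately, both passed the threshold (edgeR adjusted p = 0.0304 and 0.0381), but that count treats copies as samples. *Tapbp* had 220 and 202 CPM, below both endotoxemic libraries (log2 change −0.76, 95% interval −1.25 to −0.28, edgeR adjusted p = 0.074). It passed the threshold with DESeq2 (adjusted p = 0.0229), without a filter on low counts (edgeR adjusted p = 0.0166) and without LGK974 library 1 (edgeR adjusted p = 0.0205).

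*Psmb9* and *Tap2* differed widely between libraries of the same group. *Psmb9* had 74.7 CPM in LGK974 library 1 and 16.7 CPM in library 2, a 4.47-fold difference in which library 2 was below both control libraries. Its log2 change against the endotoxemic group was −1.44 (SE 0.55, edgeR adjusted p = 0.159), and without LGK974 library 1 it was −2.89 (edgeR adjusted p = 2.46e-05). Without LGK974 library 2 it was −0.73 (edgeR adjusted p = 0.101). *Tap2* had 37.1 and 16.5 CPM in the LGK974 pair, overlapping the endotoxemic libraries, with a log2 change of −1.06 (95% interval −2.37 to 0.25, edgeR adjusted p = 0.316). Without endotoxemic library 1, the direction of *Tap2* changed, to 0.23. Without a filter on low counts, both genes passed the threshold (edgeR adjusted p = 4.62e-07 for *Psmb9* and 0.00131 for *Tap2*). No large change was seen in the presenting molecules. *H2-K1* had 1640 and 1311 CPM (log2 change −0.30, 95% interval −0.76 to 0.16), *H2-D1* had 1283 and 839 CPM (−0.18, −0.80 to 0.44), and *B2m* had 4242 and 2564 CPM (0.17, −0.50 to 0.83). Their adjusted p values by edgeR were 0.415, 0.738 and 0.777.

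**Figure D2:**
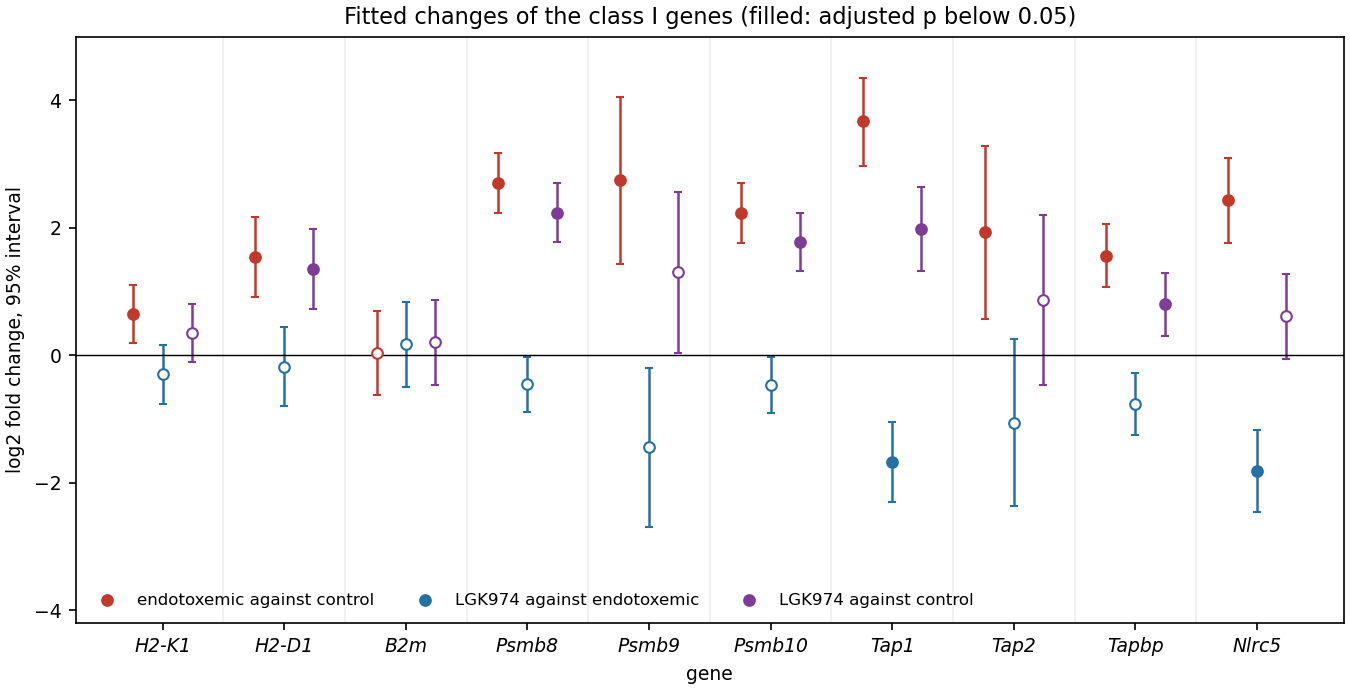
Log2 fold changes of the 10 class I genes in the comparisons of 3 groups, with bars for 95% intervals from edgeR's quasi-likelihood fit and filled points for an adjusted p below 0.05. *Tap1* has the highest value in the endotoxemic group (3.67), and *Tap1* and *Nlrc5* carry the filled points of the LGK974 group against the endotoxemic group.

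Relative to control livers, 5 of the 10 genes were higher in the LGK974 group, against 16.4% of all rows tested, with a median log2 change of 1.09 for the 10 genes and 0.02 for all rows. The LGK974 pair lay above the control pair, without overlap, for 7 of the 10 genes, as for 33.8% of all rows. This comparison shares its libraries with the other comparisons and is not independent of them. The genes called were *Psmb8* (log2 change 2.24, SE 0.20, edgeR adjusted p = 5.18e-05), *Tap1* (1.99, SE 0.29, edgeR adjusted p = 0.000847), *Psmb10* (1.78, SE 0.20, edgeR adjusted p = 0.000203), *H2-D1* (1.36, SE 0.28, edgeR adjusted p = 0.0052) and *Tapbp* (0.80, SE 0.22, edgeR adjusted p = 0.0193). *H2-D1* lost its call without control library 2 (edgeR adjusted p = 0.0643), and *Tapbp* lost its call without control library 1 or 2 (edgeR adjusted p = 0.157 and 0.0918). *Nlrc5* had a log2 change of 0.61 against the control group, with a 95% interval of −0.06 to 1.28 (edgeR adjusted p = 0.142). Its LGK974 libraries, at 4.98 and 5.48 CPM, still lay above its control libraries, at 3.16 and 3.66 CPM, and it passed the threshold with the identical libraries counted separately (edgeR adjusted p = 0.0338). *Psmb9* had a log2 change of 1.31 (edgeR adjusted p = 0.102), which was −0.14 without LGK974 library 1 and 2.02 (edgeR adjusted p = 3.19e-05) without library 2. *H2-K1*, with 0.35 (edgeR adjusted p = 0.222), passed the threshold without LGK974 library 2 (0.50, edgeR adjusted p = 0.0303). Without a filter on low counts, *Psmb9* and *Tap2* passed the threshold (edgeR adjusted p = 1.05e-06 and 0.00333). *Tap2* had 0.87 (edgeR adjusted p = 0.291), which was 0.18 without LGK974 library 1, 1.35 without LGK974 library 2 and 0.58 without control library 2, and *B2m* had 0.21 (edgeR adjusted p = 0.626).

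The balance of the proteasome was described by the ratio of each inducible subunit to the constitutive subunit that it replaces, within 1 library. The counts are of 3′ ends, which do not grow with transcript length, so a ratio between genes needs no length correction. *Psmb8* to *Psmb5* was 0.321 and 0.298 in the control pair, 1.46 and 1.67 in the endotoxemic pair, and 0.976 and 0.817 in the LGK974 pair. *Psmb10* to *Psmb7* was 0.219 and 0.24 without LPS, 0.96 and 1.46 after LPS and 0.697 and 0.549 when LGK974 was added. *Psmb9* to *Psmb6* was 0.15 and 0.148 without LPS, 1.11 and 0.694 after LPS and 0.525 and 0.0811 when LGK974 was added. The endotoxemic libraries had the highest ratios in all 3 pairs, and the LGK974 libraries lay between the groups for *Psmb8* and *Psmb10*, whereas LGK974 library 2 was below the control group for *Psmb9*. Summed over the pairs, the inducible subunits had 0.221 ± 0.000319 (SD, n = 2) counts for each constitutive count without LPS, 1.2 ± 0.0459 after LPS and 0.589 ± 0.19 when LGK974 was added. With 2 libraries in each group, an exact permutation test cannot give a two-sided p below 0.333, and none was run.

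**Figure D3:**
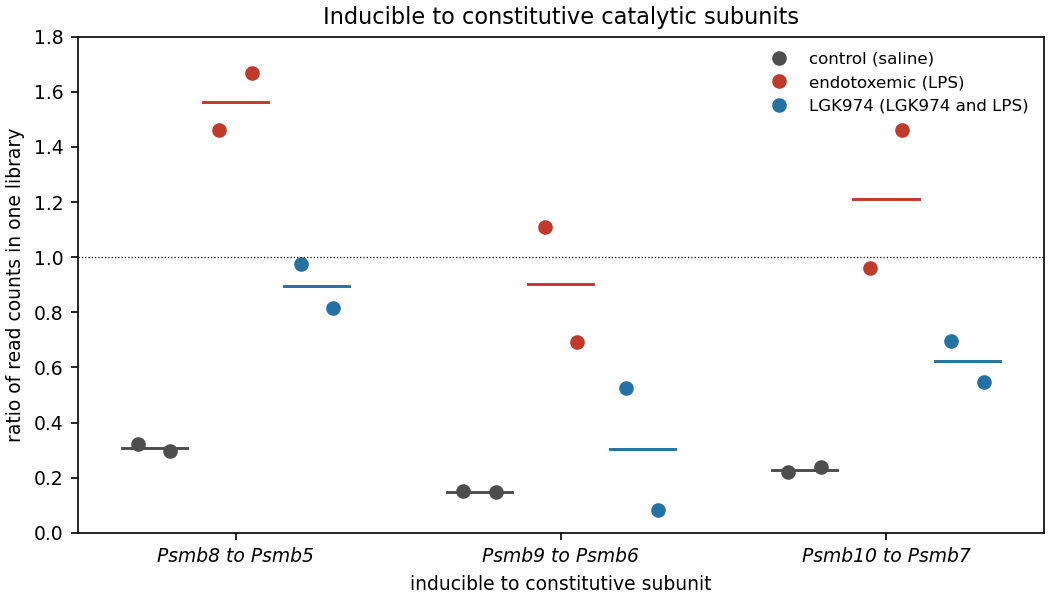
Ratio of read counts of each inducible catalytic subunit to its constitutive counterpart in each distinct library, with bars for the mean of 2 libraries and a dotted line where the counts are equal. The control libraries sit between 0.148 and 0.321, and the endotoxemic libraries between 0.694 and 1.67.

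The constitutive counterparts, which form the lower part of these ratios, did not pass the threshold with LPS or between the LGK974 and endotoxemic groups. *Psmb5*, *Psmb6* and *Psmb7* had log2 changes of 0.38, 0.15 and −0.13 with LPS (edgeR adjusted p = 0.186, 0.614 and 0.61). With LGK974 against LPS alone, they had 0.35, 0.35 and 0.47 (edgeR adjusted p = 0.372, 0.375 and 0.194). *Psmb8* and *Psmb10*, with −0.45 and −0.46, did not pass the threshold there either. The upper and lower parts of their ratios thus had log2 changes of similar size in opposite directions. Against the control group, *Psmb5* was higher in the LGK974 group (0.72, SE 0.22, edgeR adjusted p = 0.0288). In the list of 14 constitutive subunits of the 20S core, 4 were higher in the endotoxemic group, near the 20.4% of all rows called higher. The other 10 did not pass the threshold, and the median log2 change was 0.39. Of the 14, 12 had a positive log2 change, and 10 lay above the control pair without overlap, beside 37.9% of all rows. *Psma1*, a structural α subunit, had 71.3 and 76.1 CPM in the control pair, 148 and 146 in the endotoxemic pair and 84.6 and 86.1 in the LGK974 pair. It rose with LPS (log2 change 0.99, SE 0.18, edgeR adjusted p = 0.00199) and was lower in the LGK974 group (−0.78, SE 0.18, edgeR adjusted p = 0.0386). *Psma5* rose in the endotoxemic group by 1.02 on the log2 scale (SE 0.29, edgeR adjusted p = 0.0183). Relative to control livers, 5 of the 14 were called higher in the LGK974 group, against 16.4% of all rows. Among these, *Psmb4* and *Psma7* were higher by 0.76 and 0.75 on the log2 scale (edgeR adjusted p = 0.025 and 0.0153).

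Of the 10 proteasome activator and assembly genes, 3 rose in the endotoxemic group and 1 fell, beside 20.4% and 23% of all rows. *Psme1* and *Psme2* encode the subunits of the PA28 activator, which opens the proteasome core and is known as an interferon-γ target. *Psme1* had a log2 change of 1.10 (SE 0.18, adjusted p by edgeR 0.00113) and *Psme2* one of 1.38 (SE 0.20, adjusted p by edgeR 0.000634). With LGK974 against LPS alone, *Psme1* had −0.08 and *Psme2* had −0.29 (edgeR adjusted p = 0.83 and 0.414). Against the control group, both remained higher in the LGK974 group, by 1.02 and 1.09 on the log2 scale (edgeR adjusted p = 0.00229 and 0.00311). *Psme4*, which encodes the activator PA200, fell by 0.65 on the log2 scale in the endotoxemic group (edgeR adjusted p = 0.0197). *Pomp*, the assembly factor of the core, had a log2 change of 0.09 (edgeR adjusted p = 0.744).

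Regulators of class I transcription were described in a list of 27 interferon pathway and promoter-binding genes, of which 23 stood on rows in genomic order. In the endotoxemic group, 14 of these were higher than in control livers, against 20.4% of all rows, and the other 9 did not pass the threshold. In the LGK974 group, 8 of the 23 were below their endotoxemic level, against 2.82% of all rows tested. The median log2 change of the list was 0.95 in the first of these comparisons and −0.68 in the second. *Jak2*, *Rela*, *Relb* and *Ciita* stood on rows out of genomic order and are given no direction.

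*Ifng*, which encodes interferon-γ, had 0 counts in both control libraries, 93 and 127 counts in the endotoxemic pair, and 2 and 0 counts in the LGK974 pair. With 3 counts per control library as the smallest signal that can be shown, its level was at least 49.9-fold higher in the endotoxemic group (edgeR adjusted p = 0.000148). The LGK974 counts lay below that smallest signal. Taken as counted, the LGK974 level was 0.602% of the endotoxemic level (edgeR adjusted p = 0.00399). Its 95% exact binomial interval of 0.0724% to 2.2% covers counting error only. Interferon-γ is known to induce the transcription factor IRF1. *Irf1* had 37.9 and 26 CPM in the control pair, 399 and 213 CPM in the endotoxemic pair and 66.2 and 56 CPM in the LGK974 pair. It rose with LPS by a log2 change of 3.26 (SE 0.33, edgeR adjusted p = 7.62e-05) and was lower with LGK974 than with LPS alone (−2.33, SE 0.32, edgeR adjusted p = 0.00668). Both LGK974 libraries lay below both endotoxemic libraries for 16 of the 23 regulators, as for 26% of all rows.

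*Irf8*, a myeloid interferon regulatory factor, rose with LPS (log2 change 3.73, SE 0.37, edgeR adjusted p = 5.92e-05) and fell below that level when LGK974 was added (−2.48, SE 0.34, edgeR adjusted p = 0.00684). *Socs1*, the feedback inhibitor of interferon signaling, had 17 and 7 counts in the control pair and 1538 and 1005 counts in the endotoxemic pair (log2 change 7.16, SE 0.56, edgeR adjusted p = 1.77e-05). With 626 and 364 counts, it was lower in the LGK974 group (−1.94, SE 0.40, edgeR adjusted p = 0.0284) but above the control group (5.22, SE 0.54, edgeR adjusted p = 0.00011). *Socs3*, a related inhibitor, also stayed above the control group in the LGK974 group (2.85, SE 0.30, edgeR adjusted p = 0.000117). *Rfx5* encodes a subunit of the complex through which NLRC5 reaches class I promoters. It rose in the endotoxemic group (0.95, SE 0.31, edgeR adjusted p = 0.0359), and its log2 change of −0.96 with LGK974 against LPS alone did not pass the threshold (edgeR adjusted p = 0.108). *Irf2*, which can bind the same interferon-type motifs as IRF1, had 84.7 and 80 CPM in the control pair, 66.2 and 71.1 CPM in the endotoxemic pair and 31.5 and 31.3 CPM in the LGK974 pair. The LGK974 level was below that of endotoxemic livers (−1.13, SE 0.18, edgeR adjusted p = 0.0132) as well as that of control livers (−1.39, SE 0.19, edgeR adjusted p = 0.000485).

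**Figure D4:**
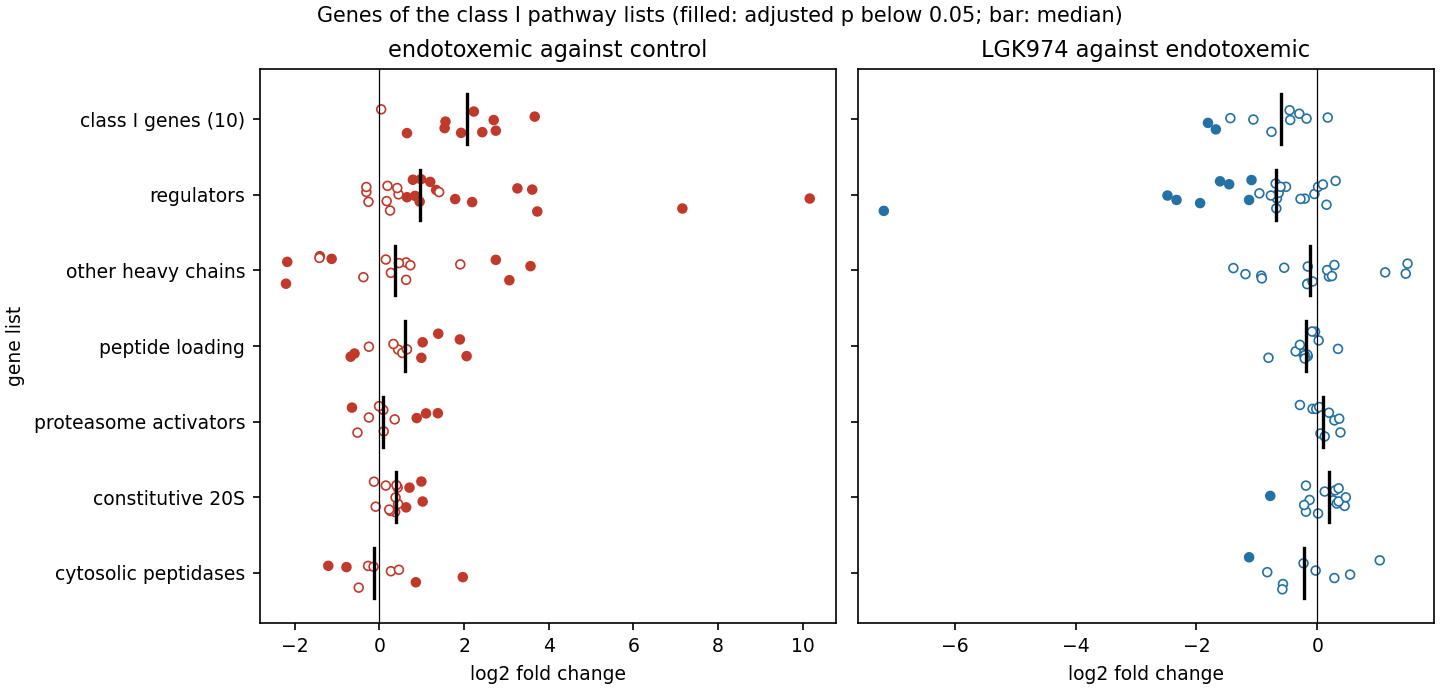
Log2 fold changes of single genes in the class I set and 6 related lists for the endotoxemic group against the control group (left) and the LGK974 group against the endotoxemic group (right), with filled points for an edgeR adjusted p below 0.05 and a bar for the median. The class I genes and their regulators have medians of 2.08 and 0.95 on the left and of −0.61 and −0.68 on the right, and genes on rows out of genomic order are left out.

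The other class I and class I-like heavy chains form a family that presents peptides or lipids or has other ligands. Of 29 such genes, 16 were tested on rows that were not out of order. In the endotoxemic group, 3 were higher and 4 were lower, against 20.4% and 23% of all rows, with a median log2 change of 0.36. *H2-Q5* and *H2-Q4*, of the Qa region, had the largest rises (log2 changes 3.57 and 3.07, edgeR adjusted p = 0.013 and 0.046), at levels of at most 1.85 and 2.51 CPM. *H2-M3*, which presents N-formylated peptides, had 0.278 and 0.784 CPM in the control pair and 4.26 and 3.3 CPM in the endotoxemic pair (2.75, SE 0.60, edgeR adjusted p = 0.00559). It stayed above the control group in the LGK974 group, by a log2 change of 2.58 (edgeR adjusted p = 0.00944). *Fcgrt*, the neonatal Fc receptor chain that salvages IgG and albumin, and *Cd1d1*, which presents lipids to NKT cells, had the largest falls. *Fcgrt* went from 114 and 131 CPM to 25.9 and 27 CPM (log2 change −2.21, SE 0.28, edgeR adjusted p = 0.000279). *Cd1d1* went from 313 and 261 CPM to 70.1 and 56.3 CPM (−2.18, SE 0.21, edgeR adjusted p = 5.83e-05), and it was as low in the LGK974 pair, at 65.3 and 75.9 CPM. Both pair with β2-microglobulin, as *H2-K1* and *H2-D1* do. *H2-Q1* was lower with LGK974 than without LPS (−2.34, SE 0.46, edgeR adjusted p = 0.00428), and *H2-M2* was higher (3.40, SE 0.87, edgeR adjusted p = 0.0154) at levels of at most 2.23 CPM. Between the LGK974 and endotoxemic groups, edgeR and DESeq2 each called 0 of the 16 genes, and 0 had an unadjusted p below 0.05. Of all rows, edgeR called 2.82% lower in this comparison, and 22.9% had an unadjusted p below 0.05.

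Another 4 heavy chain genes are given because their values were seen to bear on the counting. *H2-Q10*, a secreted class I molecule of the liver, had 1131 and 1004 CPM in the control pair, which was near the level of *H2-K1*, and 847 and 789 CPM in the endotoxemic pair (log2 change −0.38, edgeR adjusted p = 0.184). *H2-Q9* had 34.9 and 40.5 CPM in the control pair, 240 and 222 CPM in the endotoxemic pair and 205 and 127 CPM in the LGK974 pair. Its row stands between *H2-Q7* and *H2-Q10* but was counted as out of order, because the RefSeq table places it more than 2 Mb from those genes. That table position may itself be at fault, which could not be settled here. Taken as labelled, the row had a log2 change of 2.61 with LPS (SE 0.26, edgeR adjusted p = 6.36e-05). *H2-T22* and *H2-T9* had nearly the same level in each library, from 41.2 to 85.9 CPM and from 39.9 to 84.2 CPM. Whether reads of near-identical copies were shared between such rows was not tested.

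Of the 12 genes of peptide loading and trimming in the endoplasmic reticulum, 5 rose and 2 fell with LPS, beside 20.4% and 23% of all rows, with a median log2 change of 0.59. *Tapbpl* encodes TAPBPR, a relative of tapasin that edits bound peptides. It had 18.2 and 14.3 CPM in the control pair, 69.8 and 51.6 CPM in the endotoxemic pair and 37.4 and 31.7 CPM in the LGK974 pair. Its log2 changes were 1.90 with LPS (SE 0.24, edgeR adjusted p = 0.000275) and −0.81 with LGK974 compared with the endotoxemic group (SE 0.23, edgeR adjusted p = 0.0768). DESeq2 called 1 gene of this list lower in the latter comparison. *Sec61g*, a subunit of the Sec61 channel, rose by 2.06 on the log2 scale (edgeR adjusted p = 8.93e-05) and stood 2.39 above the control group in the LGK974 group (edgeR adjusted p = 5.64e-05). *Bcap31* and *Ganab* fell in the endotoxemic group, by 0.68 and 0.59 on the log2 scale (edgeR adjusted p = 0.0169 and 0.0442). *Erap1*, the aminopeptidase that trims class I peptides, had a log2 change of 0.54 (edgeR adjusted p = 0.0986). *Calr*, a chaperone of the loading complex, had 0.44 (edgeR adjusted p = 0.133).

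The cytosolic peptidases trim or destroy peptides before transport. Of 9 genes, 2 rose and 2 fell with LPS, which is close to the 20.4% and 23% of all rows, with a median log2 change of −0.14. *Dpp9*, a dipeptidyl peptidase, had 47.7 and 43.4 CPM in the control pair, 174 and 183 CPM in the endotoxemic pair and 64.1 and 98.7 CPM in the LGK974 pair. Its log2 change was 1.97 with LPS (SE 0.24, adjusted p by edgeR 0.000203) and −1.13 with LGK974 against LPS alone (SE 0.23, adjusted p by edgeR 0.0264). *Tpp2* rose in the endotoxemic group (0.86, SE 0.23, edgeR adjusted p = 0.0157). *Lap3*, leucine aminopeptidase, fell by 1.21 on the log2 scale (edgeR adjusted p = 0.00132) and was also low in the LGK974 group (−1.44 against the control group, edgeR adjusted p = 0.000701). *Prep* fell by 0.78 (edgeR adjusted p = 0.0439). DESeq2 called 1 of the 9 lower with LPS, where edgeR called 2. With LGK974 against LPS alone, DESeq2 called 2 of the 9 lower and edgeR called 1, beside 2.82% of all rows by edgeR.

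Summed levels of liver cell type markers also differed between the groups, in several directions. The summed CPM of 7 hepatocyte markers was 87758 and 120928 in the control pair, 38588 and 55674 in the endotoxemic pair, and 40886 and 44876 in the LGK974 pair. Most of this sum was *Alb*, and with LPS 6 of the 7 were called lower, against 23% of all rows, while *Fga* was called higher (log2 change 2.26, edgeR adjusted p = 0.000179). Among the 6 neutrophil markers in the files, 3 were on rows in order, and their sum was 1.76 to 2.35 CPM without LPS, 56.5 to 70.8 CPM after LPS and 33.1 to 34.5 CPM when LGK974 was added. The 2 monocyte markers in order, of 4, summed to 11.7 to 12.7 CPM without LPS, 160 to 191 CPM after LPS and 126 to 140 CPM when LGK974 was added. Markers of T or NK cells (10 genes, with *Ncr1* at 0 in every library) stayed at or below 7.35 CPM in sum, at 3.66 to 6.5 CPM in the control, 5.56 to 7.35 CPM in the endotoxemic and 2.03 to 2.26 CPM in the LGK974 pair. Of the 3 that could be tested, *Gzmb* was called higher with LPS (log2 change 3.03, edgeR adjusted p = 0.00865), beside 20.4% of all rows. *Cd3d* and *Nkg7* had negative log2 changes (−0.54 and −0.09, edgeR adjusted p = 0.704 and 0.928). Kupffer cell markers (5 of 7 in order) summed to 95.5 to 101, 117 to 138 and 85.5 to 119 CPM, and those of endothelial cells (6 genes) to 230 to 245, 444 to 446 and 476 to 612 CPM, in the order control, endotoxemic and LGK974. Single members also went both ways within the last 2 lists. With LPS, *Marco* was higher (log2 change 3.70) while *Clec4f* and *Vsig4* were lower (−0.89 and −2.76), and *Lyve1* was higher (3.03) while *Clec4g* and *Kdr* were lower (−3.49 and −5.36), all at an edgeR adjusted p of at most 0.0124. The 4 erythroid markers summed to 2699 to 2918 CPM without LPS, 6468 to 7581 CPM after LPS and 2688 to 4142 CPM when LGK974 was added. Of these, 3 were called higher with LPS and 2 lower with LGK974 against LPS alone, beside 20.4% and 2.82% of all rows, while *Alas2* had a log2 change of 1.06 in the latter comparison (edgeR adjusted p = 0.062). The 4 B cell markers summed to 2.22 to 4.36, 2.07 to 3.73 and 0.0755 to 0.677 CPM in the same order, and the 2 that could be tested did not pass the threshold. The sums were 4.36 to 5.23, 1.2 to 2.24 and 2.91 to 4.98 CPM for 5 dendritic cell markers, 13.4 to 15.3, 74.3 to 80.5 and 29.1 to 72.3 CPM for 4 cholangiocyte markers, and 397 to 409, 520 to 566 and 441 to 531 CPM for 5 stellate cell markers. Most of the last 2 sums after LPS came from *Sox9* and *Dcn*, which had positive log2 changes (3.12 and 0.60), while the other 3 cholangiocyte and the other 4 stellate cell markers had negative ones, of which 1 and 3 were called lower. With LGK974 against LPS alone, all 5 Kupffer cell markers had negative log2 changes, and *Clec4f* was called lower (−1.30, edgeR adjusted p = 0.0187). Of the 6 endothelial markers, 3 had positive and 3 negative changes, and *Clec4g* was called lower (−2.19, edgeR adjusted p = 0.0163). Among stellate cell markers, *Col1a1* was called higher (1.59, edgeR adjusted p = 0.0362). Of all 12701 rows, 358 were called lower and 356 higher there. The part of these cell types in the class I levels was not tested.

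The rows most like the class I genes were found from the Pearson correlation of log2 CPM with the mean z-score of the 10 genes over the 6 distinct libraries, as a description. That mean was −0.89 and −1.04 in the control pair, 1.00 and 0.70 in the endotoxemic pair, and 0.49 and −0.25 in the LGK974 pair. *Edn1*, *Wtap*, *Klf6*, *Mettl18* and *Golph3* had the highest r outside the lists, from 0.996 to 1.000 to 3 decimals. With 6 libraries in 3 groups such values are common, and 514 rows outside the lists had an r above 0.95. The correlation was computed for 12160 rows, genes of the lists included.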

How the data were processed

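Liver RNA libraries were made with the Lexogen QuantSeq kit, which reads 3′ ends. The authors deposited raw read counts for each gene symbol, without normalization. The submitters' processing notes name mm10, Bowtie2 and edgeR, and the counting program and strand setting are not given in the sources used here. Identical endotoxemic libraries were counted once. Counts were filtered with filterByExpr, TMM-normalized and tested across 3 groups with edgeR 4.0.16 in R 4.3.3 by 1 quasi-likelihood model, with Benjamini-Hochberg adjustment at 0.05. On simulated data for the endotoxemic and control groups, 200 of 12375 genes were changed. Of those changed by 1, 2 and 3 log2 units, 34.3%, 98.5% and 98.5% were recovered.

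Rows were called out of order from RefSeq positions on GRCm38 by the longest ordered set of rows. All rows entered the main fit as labelled. As an alternative, the endotoxemic and LGK974 counts of 443 matched rows were given to the gene at that place, and 138 unmatched rows were left out. Total counts were 9142116 to 15222439, and a floor of 3 counts covers counting error only. Alternatives were other filters, normalizations, samples and tools (DESeq2 1.42.0, limma 3.58.1).

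The class I genes and lists were chosen with earlier results of these data known. The named genes are the 10 class I genes, *Psmb5*, *Psmb6* and *Psmb7*, *Ifng*, *Irf1*, *Rfx5* and *Socs1*, in each list the 2 largest rises and 2 largest falls that passed the threshold in a comparison, and the 5 rows most like the set. Other genes of the lists are named after their values were seen. A regulator that the rule also names is not reported here.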

Additional observations from a re-analysis of the deposited data

How the results depend on the processing

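For endotoxemic against control livers, 169 of 180 values of single class I genes kept their direction and their side of the threshold under the alternatives, as did 162 of 180 for LGK974 against endotoxemic livers and 170 of 180 for LGK974 against control livers. With 1 library left out, called rows ranged from 3432 to 6719, from 49 to 2242 and from 2372 to 5369 in these comparisons (5513, 714 and 4328 with all libraries), and called class I genes from 7 to 9, from 0 to 4 and from 3 to 7. An arm with 1 library is assumed there to vary like the other groups. For LGK974 against endotoxemic livers, 1705 rows were called without a filter on low counts, 1227 with DESeq2, 3259 with identical libraries counted separately and 269 with only the 2 groups compared in the fit. Called class I genes in this comparison numbered 5 without a filter and 5 with identical libraries counted separately. The cause of these shifts was not tested. Log2 fold changes that changed direction did so when 1 library was left out: *B2m* ranged from −0.23 to 0.31 (endotoxemic against control), from −0.24 to 0.48 (LGK974 against endotoxemic) and from −0.2 to 0.53 (LGK974 against control), *H2-D1* from −0.52 to 0.1 and *Tap2* from −1.75 to 0.23 (LGK974 against endotoxemic), and *Psmb9* from −0.14 to 2.02 (LGK974 against control). The labels give the groups the same replicate numbers without saying that they pair the libraries, and deviations of same-numbered libraries had correlations of 0.12, 0.059 and −0.0055. With the replicate block, 5485, 685 and 4307 rows and 9, 2 and 5 class I genes were called in the 3 comparisons. Reassigned symbols and leaving out rows out of order also gave 9, 2 and 5 class I genes. In the simulation of endotoxemic against control libraries, 34.3% of changes of 1 log2 unit were recovered, with 6 false calls among 12375 genes. Only 200 genes above a minimum level were changed there, and each gene took the spread typical of its level. The simulation thus does not cover genes with a wider spread within a group, such as *Tap2* and *Psmb9*.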
